A study of Homo sapiens with 9 samples.

Results

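Proteins made on the endoplasmic reticulum (ER) reach the Golgi in vesicles, and 47 genes of this route were examined in ribosome profiling of Huh-7, a cell line from a human hepatocellular carcinoma. They were taken by name and comprise vesicle coats, tethers, cargo receptors and the fusion machinery. Of the 47, 45 had a row in both of the authors' deposited tables, which list 9157 transcripts for PF8503, 8839 for PF846 and 8775 for both. GOSR2, a Golgi SNARE, and NSF, the ATPase that takes SNARE complexes apart, had no row under these names and were not analysed here.

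The cells received 1.5 μM PF-06378503 (PF8503), 1.5 μM PF-06446846 (PF846, spelled PF-067446846 in the titles of its libraries) or 0.5% DMSO as vehicle for 1 hr. There were 3 libraries per condition, described as biological triplicates, and 9 in all. Both compounds act on the ribosome and can stall it while it makes particular proteins. The question put to each transcript here was whether the counted part of its coding sequence held fewer footprints. That part lay 3' of a possible stall where the study called one, and was nearly the whole coding sequence elsewhere. The method counts footprints, the stretches of mRNA covered by a translating ribosome, and without mRNA levels a change in mRNA cannot be told apart from a change in its translation.

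Each table gives the authors' mean per condition in normalized counts, that is, reads divided by DESeq size factors and averaged over libraries. Since only these means were used, the depth of each library is unknown, the spread between replicates cannot be given, and none of the differences carries a test. Values are given as log2 ratios, compound mean over vehicle mean. Because both tables share the vehicle libraries, low values with both compounds are not independent of each other. Vehicle libraries were sequenced in lanes 1, 1 and 5, PF8503 libraries in lanes 4, 4 and 8 and PF846 libraries in lanes 2, 2 and 6, which means that the lane cannot be told apart from the condition. All 15 hepatocyte genes looked up, ALB, AFP and HNF4A among them, had a row, with vehicle means from 1249 to 212970 normalized counts. Of the genes of other cell types, 1 of 3 fibroblast genes (LUM, 85.2 normalized counts with vehicle) and 1 of 3 endothelial genes (PECAM1, 170) had a row, and 0 of 4 blood cell genes.

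COPII coats carry cargo out of the ER, COPI coats return proteins from the Golgi to the ER, tethers such as USO1 and the golgins catch vesicles at the Golgi, and SNARE proteins fuse them with their target membrane. A hepatocyte secretes most plasma proteins and lipoproteins along this route. KDEL receptors retrieve ER chaperones that escape with the cargo.

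Most of the transport genes stood within 0.2 of vehicle on the log2 scale with either compound. The exceptions were USO1 and KDELR3, which were lower with both, and BET1, which was higher with PF846. With PF8503, 2 of the 45 genes had a log2 ratio of -0.5 or lower, against 1.08% of all transcripts in that table, and none was at 0.5 or higher, against 0.24%. With PF846, 1 of the 45 was at -0.5 or lower, against 0.396% of all transcripts, and none was at 0.5 or higher, against 0.0792%. The gene common to both compounds was USO1, and the second with PF8503 was KDELR3. USO1 was in the list as a transcript with a known late stall, so its count is fixed by that choice, and without it 1 of 44 genes with PF8503 and 0 of 44 with PF846 were at -0.5 or lower. The median log2 ratio of the 45 genes was 0.0016 with PF8503, beside 0.013 for all transcripts, and 0.0024 with PF846, beside 0.00086. Log2 ratios within 0.2 of 0 were found for 43 of 45 genes with PF8503 (87.1% of all transcripts) and for 42 of 45 with PF846 (93.1%). Below 0 were 22 of 45 with PF8503 (45.3% of all transcripts) and 21 of 45 with PF846 (49.7%).

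**Figure D1:**
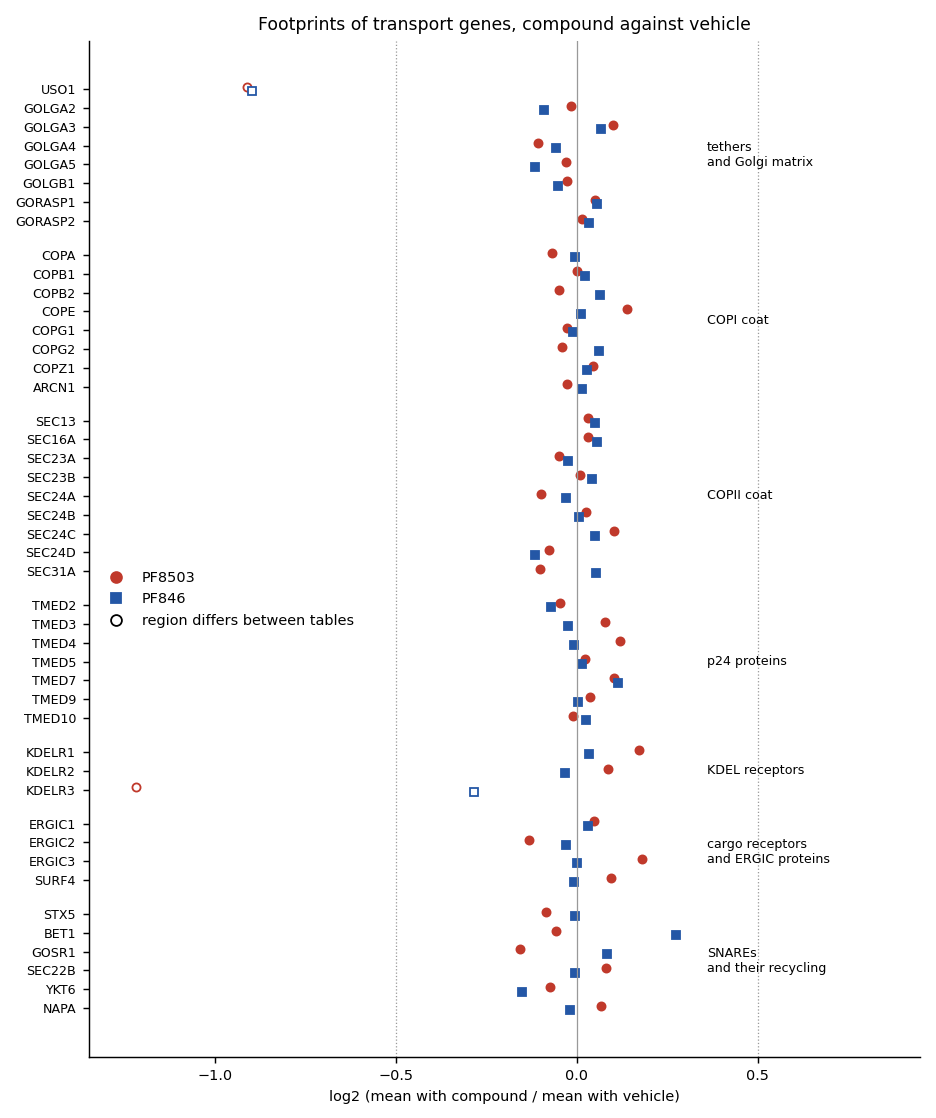
Log2 ratio of the authors' means, compound over vehicle (x axis), for the 45 transport genes, ordered by role, with red circles for PF8503 and blue squares for PF846. Open symbols mark USO1 and KDELR3, whose counted region differed between the tables, and dotted lines mark -0.5 and 0.5. USO1 lies at -0.91 and -0.90 and KDELR3 at -1.22 and -0.28, while the other genes lie between -0.16 and 0.27.

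USO1 (ENSG00000138768, GRCh38 chr4:75724577-75814286, forward strand) encodes p115, the coiled-coil tether that holds ER-derived and COPI vesicles at the Golgi before fusion. It has 24 coding exons and 962 codons, and was singled out here beforehand as a transcript with a late stall. In the PF8503 table the authors' mean was 1230 normalized counts with vehicle and 653 with PF8503, or 53.1% of vehicle. In the PF846 table it was 1222 with vehicle and 656 with PF846, or 53.7%. The log2 ratios were therefore -0.91 and -0.90, at place 30 from the lowest of 9157 transcripts with PF8503 and place 15 of 8839 with PF846.

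The 7 other tethers and Golgi matrix genes did not share this. With PF8503 their log2 ratios ran from -0.11 in GOLGA4, a golgin of the trans-Golgi, to 0.10 in GOLGA3, with a median of -0.015. With PF846 they ran from -0.11 in GOLGA5 to 0.067 in GOLGA3, with a median of -0.053. GOLGA2, the golgin GM130 that binds p115 on the cis-Golgi, had means of 471 with vehicle and 466 with PF8503, and of 431 with vehicle and 405 with PF846. Its log2 ratios were -0.015 and -0.089. GOLGB1, or giantin, the other golgin known to bind p115, had log2 ratios of -0.028 and -0.053. The stacking proteins GORASP1 and GORASP2 were at 0.050 and 0.015 with PF8503 and at 0.057 and 0.032 with PF846. The binding partners of USO1 thus stood near vehicle in both tables while USO1 stood at little over 53% of it. USO1 was picked for its stall, and its PF8503 region was chosen at the largest deficit. Each partner had the same counted region for both compounds, so USO1 and its partners are not compared by a like measure.

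The part of a coding sequence that was counted matters for reading these values. Where the cumulative reads of compound and vehicle diverged strongly, the study counted only codons 3' of the point of largest divergence, and elsewhere nearly the whole coding sequence. As the vehicle libraries are shared, the vehicle mean of the PF8503 table was 1.09 times that of the PF846 table wherever the same codons were counted. It departed from this constant, by more than 0.002 on the log2 scale, in 2 of the 45 genes, USO1 and KDELR3, against 1.53% of the 8775 transcripts in both tables. The PF8503 region of USO1 thus held 92.2% of the vehicle reads of its PF846 region, and that of KDELR3 68.9%. As USO1 was listed for its known stall, its place among these 2 genes is not independent of that choice. Choosing a start at the largest deficit lowers the ratio by construction: all 92 transcripts with the smaller region in the PF8503 table had a log2 ratio below 0 there, with a median of -0.58. Of the 42 with the smaller region in the PF846 table, 40 were below 0 with PF846, with a median of -0.57 and a highest value of 0.084. KDELR3 was number 7 and USO1 number 18 from the lowest of these 92. For both genes the values of PF8503 and PF846 cover different codons and give no direct contrast between the compounds.

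KDELR3 (ENSG00000100196, GRCh38 chr22:38468078-38483447, forward strand, 214 codons in 5 coding exons) is 1 of 3 KDEL receptors, multi-pass membrane proteins that bind the C-terminal retrieval signal of ER chaperones. In the PF8503 table its mean was 134 normalized counts with vehicle and 57.4 with PF8503, which is 43.0% of vehicle and a log2 ratio of -1.22. This was place 14 from the lowest of 9157 transcripts. In the PF846 table the means were 177 with vehicle and 146 with PF846, or 82.1% of vehicle, and the log2 ratio of -0.28 was place 122 from the lowest of 8839. Over the 92 transcripts with the smaller PF8503 region the median log2 ratio with PF846 was -0.011, and KDELR3 was number 5 from the lowest.

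KDELR1 and KDELR2, which do the same work in retrieval, stood within 0.2 of vehicle on the log2 scale. KDELR1 had means of 4803 with vehicle and 5408 with PF8503, a log2 ratio of 0.17, and of 4397 with vehicle and 4498 with PF846, a log2 ratio of 0.033. KDELR2 had means of 6511 with vehicle and 6911 with PF8503 (log2 ratio 0.086) and of 5960 with vehicle and 5823 with PF846 (log2 ratio -0.034). With PF8503, KDELR3 therefore lay more than 1 below the others on the log2 scale. KDELR1 and KDELR2 had the same counted region for both compounds, while the PF8503 value of KDELR3 covers a smaller region, chosen at the largest deficit. The 3 receptors are thus not compared by a like measure. KDELR3 also had far fewer reads than either of them in both tables.

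**Figure D2:**
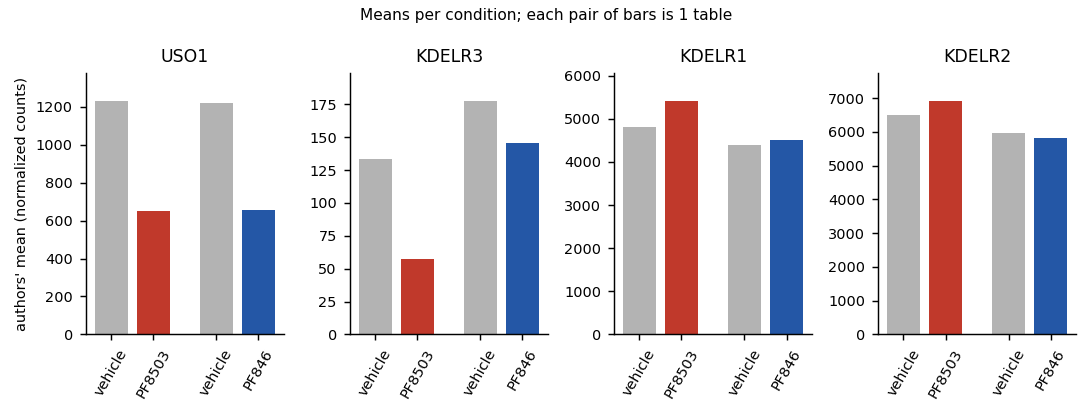
Authors' means in normalized counts (y axis, from 0, a scale of its own in each panel) for USO1 and the 3 KDEL receptors. In each panel the left pair of bars is the PF8503 table and the right pair the PF846 table, with vehicle in grey. USO1 is near 53% of vehicle with either compound, and KDELR3 is at 43.0% with PF8503 and 82.1% with PF846, while KDELR1 and KDELR2 lie between 97.7% and 113% of vehicle. The PF8503 pair of bars of KDELR3 covers a smaller region than its PF846 pair. No replicate error is available.

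The start of the coding sequence is shown for KDELR3 and KDELR1 because they are close relatives with unlike values, though not over a like choice of region. Over the whole coding sequence KDELR3 shared 69.9% of aligned bases with KDELR1. Of the windows of 28 bases in KDELR3, none occurred in the canonical coding sequence of another gene. The lines give coding bases 1 to 150 of the canonical transcripts of GENCODE version 44 on GRCh38, 5' to 3' on the coding strand, compared base by base without gaps. Capitals mark the 37 bases at which the pair differs. Each stretch crosses 1 intron, so the coordinates span 2 coding exons: chr22:38468234-38474581 on the forward strand for KDELR3 and chr19:48390466-48391358 on the reverse strand for KDELR1.
KDELR3: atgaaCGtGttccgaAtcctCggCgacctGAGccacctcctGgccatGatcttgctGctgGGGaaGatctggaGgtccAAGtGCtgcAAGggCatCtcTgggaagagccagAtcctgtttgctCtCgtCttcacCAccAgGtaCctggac
KDELR1: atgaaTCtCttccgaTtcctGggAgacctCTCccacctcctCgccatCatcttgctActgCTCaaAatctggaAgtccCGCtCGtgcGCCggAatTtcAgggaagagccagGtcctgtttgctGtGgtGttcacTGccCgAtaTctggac

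Where in KDELR3 the PF8503 region begins, within this stretch or beyond it, cannot be read from the means.

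The p24 proteins (TMED family), single-pass cargo receptors that cycle between ER and Golgi, had a median log2 ratio of 0.036 with PF8503 and 0.0024 with PF846. TMED2, which had the most reads of the family, had means of 4649 with vehicle and 4505 with PF8503, and of 4255 with vehicle and 4047 with PF846, for log2 ratios of -0.046 and -0.072. TMED4 was the highest of the 7 with PF8503 at 0.12 (1033 to 1122 normalized counts) and stood at -0.0074 with PF846. TMED7 had the fewest reads and log2 ratios of 0.10 and 0.11, and 83.7% of its 28-base windows also occur in the readthrough gene TMED7-TICAM2. The study kept reads with a single position only, and the part of this in the values of TMED7 was not tested. None of the 7 left the central 95% of transcripts with a like mean.

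Among the other receptors of this route, ERGIC3, a cargo receptor of the ER-Golgi intermediate compartment, had the highest log2 ratio with PF8503 of all 45 genes. Its means were 3934 with vehicle and 4459 with PF8503, a log2 ratio of 0.18, and 3601 with vehicle and 3604 with PF846, a log2 ratio of 0.0010. Transcripts were divided into 10 classes by their mean, and the central 95% of the class of ERGIC3 ended at 0.17 with PF8503. It was the only transport gene above this range with PF8503, or 1 of 45 against 2.51% of all transcripts, and none was above it with PF846. KDELR1, in the same class, was just inside with PF8503, at 0.171 beside a limit of 0.173. SURF4, a multi-pass receptor for soluble secreted cargo, had log2 ratios of 0.094 (4277 to 4565 normalized counts) and -0.0070. ERGIC1 was at 0.047 and 0.031. ERGIC2, which pairs with ERGIC3, was at -0.13 with PF8503 and -0.029 with PF846, from a vehicle mean of 291 in the PF8503 table. ERGIC2 and ERGIC3 thus lay on opposite sides of vehicle with PF8503, each by less than 0.2 on the log2 scale.

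Below the central 95% of their class were 2 of 45 genes with PF8503 (2.51% of all transcripts) and 2 of 45 with PF846 (2.6%), USO1 and KDELR3 in both tables. USO1 was listed for its known stall, so its place here is fixed by that choice, and without it KDELR3 alone is left with either compound. For both genes the PF8503 region was the smaller one, chosen at the largest deficit, which lowers the ratio by construction. Whether the PF846 region of either gene also began at its own largest deficit cannot be read from the means. For USO1 the range began at -0.30 with PF8503 and -0.15 with PF846. For KDELR3 it began at -0.40 and -0.27, so its PF846 value of -0.28 lay just outside.

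**Figure D3:**
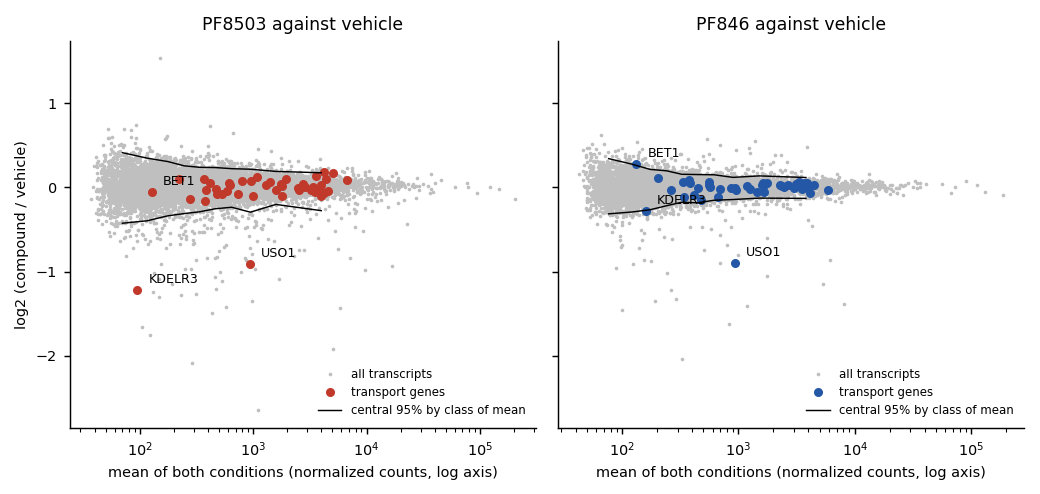
Log2 ratio (y axis) against the mean of both conditions in normalized counts (x axis, log scale) for all transcripts of each table in grey and the 45 transport genes in colour, with PF8503 on the left and PF846 on the right. Black lines join the limits of the central 95% of transcripts in 10 classes of mean. USO1 lies far below the lines in both panels, KDELR3 far below with PF8503 and at the lower line with PF846, and BET1 at the upper line with PF846.

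The COPI coat is a complex of 7 subunits, and the genes listed here include both COPG1 and COPG2 for the gamma subunit. The 8 listed genes stayed between -0.068 and 0.14 with PF8503, with a median log2 ratio of -0.028, and between -0.011 and 0.065 with PF846, with a median of 0.019. COPA, the alpha subunit, was the lowest with PF8503, at means of 4317 with vehicle and 4119 with PF8503. COPE, the epsilon subunit, was the highest, and number 3 among all 45 genes, at 3412 with vehicle and 3755 with PF8503 (log2 ratio 0.14), while its PF846 means of 3123 and 3146 gave 0.010. With PF846, the beta' subunit COPB2 was highest at 0.065 and COPG1 lowest at -0.011. COPB1 was at 0.0016 and 0.024, COPG2 at -0.041 and 0.062, COPZ1, the zeta subunit, at 0.045 and 0.029, and ARCN1, the delta subunit, at -0.028 and 0.014. The coat subunits were thus spread over about 0.2 on the log2 scale with PF8503 and less with PF846.

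In the COPII coat, SEC23 and SEC24 form the inner layer, which selects cargo, SEC13 and SEC31A the outer cage, and SEC16A marks the exit sites. The 9 genes ran from -0.10 to 0.10 with PF8503, with a median of 0.0087, and from -0.11 to 0.055 with PF846, with a median of 0.042. SEC31A was the lowest with PF8503, at 4146 normalized counts with vehicle and 3867 with the compound, and was at 0.053 with PF846 (3795 and 3937). Its partner SEC13 was at 0.032 and 0.052. The cargo adaptors spanned most of the range: SEC24C was at 0.10 and 0.051, SEC24B at 0.025 and 0.0048, SEC24A at -0.099 and -0.029, and SEC24D at -0.075 and -0.11. SEC24D was the lowest COPII gene with PF846, from 697 to 644 normalized counts. The paralogs SEC23A and SEC23B, alike in 75.2% of aligned coding bases, were at -0.049 and 0.0087 with PF8503 and at -0.023 and 0.042 with PF846. SEC16A was at 0.030 and 0.055.

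The SNAREs STX5, GOSR1, BET1, SEC22B and YKT6 drive fusion between ER and Golgi, and NAPA, or alpha-SNAP, links used SNARE complexes to NSF. Their 6 log2 ratios ran from -0.16 to 0.080 with PF8503 (median -0.066) and from -0.15 to 0.27 with PF846 (median -0.0055). GOSR1 was the lowest transport gene with PF8503 after KDELR3 and USO1, from 397 to 356 normalized counts (log2 ratio -0.16), and stood at 0.084 with PF846, from 364 to 386. BET1 was the highest of all 45 with PF846, from 120 to 145 normalized counts (log2 ratio 0.27, place 113 from the highest), and was at -0.057 with PF8503, from 131 to 126. With the fewest vehicle reads of the 45 in both tables, BET1 stayed within its class in both, and the class of its PF846 mean ended at 0.28. YKT6, a SNARE held to membranes by lipid, was the lowest with PF846 after USO1 and KDELR3, from 500 to 450 normalized counts (log2 ratio -0.15), and at -0.074 with PF8503. STX5 was at -0.084 and -0.0054, SEC22B at 0.080 and -0.0056, and NAPA at 0.066 and -0.019. For the missing GOSR2, 91.3% of its 28-base windows occur in the canonical coding sequence of an overlapping gene, and for NSF 0%. The part of this in their absence was not tested.

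PF8503 and PF846, related compounds given at the same dose for the same time, were set against each other for the 43 genes counted over the same region, where the shared vehicle cancels. None of the 43 was apart by 0.5 or more on the log2 scale, against 0.417% of 8641 transcripts. The log2 ratio of PF8503 over PF846 ran from -0.33 in BET1 to 0.18 in ERGIC3, with a median of 0.0088, beside 0.013 for all transcripts. PF8503 was the higher in 22 of the 43 (54.3% of all transcripts). After BET1 the lowest were GOSR1 at -0.24 and SEC31A at -0.15, and after ERGIC3 the highest were KDELR1 at 0.14 and COPE at 0.13. Medians by role were 0.13 for KDELR1 and KDELR2, 0.058 for the cargo receptors and ERGIC proteins, 0.027 for p24 proteins, 0.025 for tethers without USO1, -0.00077 for SNAREs and NAPA, -0.025 for COPII and -0.032 for COPI. Genes of one role lay on both sides of 0 in every role but that of KDELR1 and KDELR2: ERGIC2 was at -0.10 beside ERGIC3 at 0.18, and COPB2 at -0.12 beside COPE at 0.13. With means only, no interval can be given for these differences, so that a small value does not show that the compounds act alike.

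**Figure D4:**
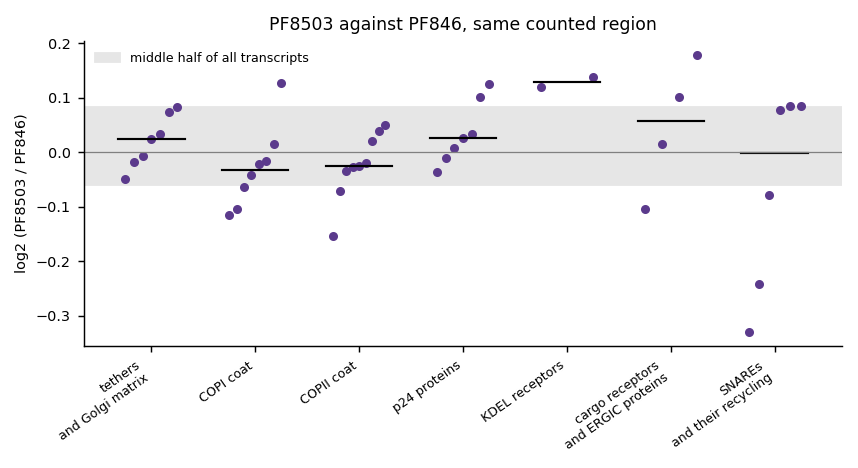
Log2 ratio of PF8503 over PF846 (y axis) for the 43 transport genes counted over the same region, as 1 point per gene in columns by role, with black lines for medians. The grey band runs from -0.060 to 0.084, the quartiles of 8641 transcripts. BET1 at -0.33 and GOSR1 at -0.24 lie lowest, ERGIC3 at 0.18 highest.

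To compare levels between genes, the vehicle mean of the PF8503 table was divided by the number of codons. The 10 codons at each end were left out, as the study did. This takes nearly the whole coding sequence as counted, which was not tested. The same region for both compounds could also begin 3' of a possible stall. Over the 43 genes with the same region in both tables the median was 3.59 normalized counts per codon, and the range was 0.243 to 33.9. KDELR2 was the highest at 33.9, followed by TMED2 at 25.7, KDELR1 at 25.0 and SURF4 at 17.2. The lowest were long golgins, with GOLGA3 at 0.243, GOLGA2 at 0.467 and GOLGB1 at 0.500. With 1 mean per gene, whether neighbours in this order differ beyond replicate spread is unknown. Per codon, the COPI subunits COPA, COPB1, COPB2 and COPG1 lay between 3.08 and 4.01, ARCN1 at 5.22, and the short subunits COPZ1 and COPE at 11.0 and 11.8. COPG1 exceeded COPG2 (0.707) by 5.43 times, and their sum was 4.54. In COPII, SEC13 stood at 13.1 and SEC31A at 3.46. SEC23A and SEC23B together came to 9.68, and the 4 SEC24 genes together to 3.97, with SEC24C highest among them at 1.75. TMED9 and TMED10 were close to each other at 12.6 and 12.5, below TMED2. The SNAREs and NAPA ran from 1.34 in BET1 to 5.02 in NAPA.

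**Figure D5:**
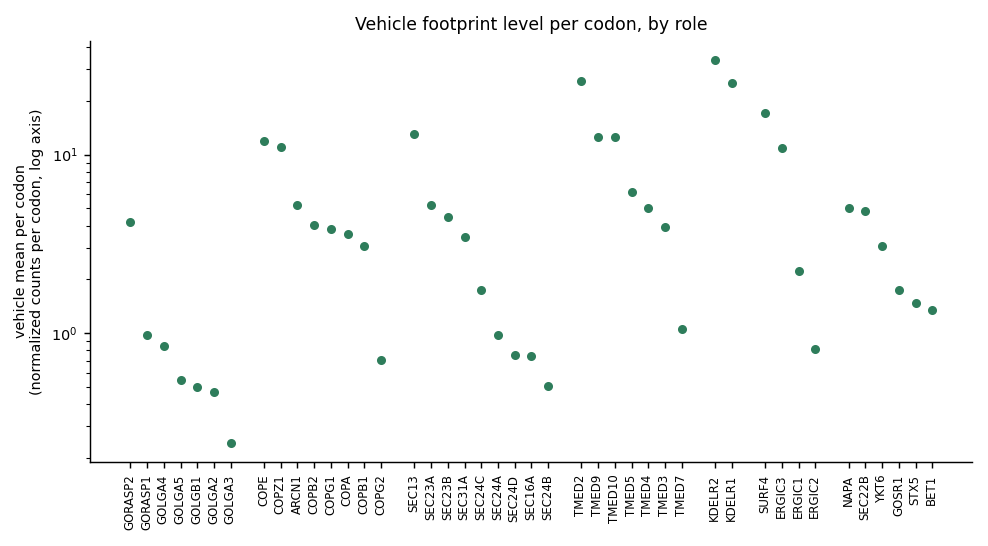
Vehicle mean per codon (y axis, normalized counts per codon, log scale) for the 43 transport genes with the same region in both tables, as 1 point per gene, ordered within each role from high to low. KDELR2 at 33.9 is the highest point and GOLGA3 at 0.243 the lowest.

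Beyond these genes, 68 other gene names of the route were looked up, among them those of SAR1 and ARF GTPases, TRAPP and COG tethering subunits and the lectins LMAN1 and LMAN2. Of these, 61 had a row with PF8503 and 59 with PF846, with medians of -0.020 and -0.026. With PF8503, 0 of 61 were at -0.5 or lower (1.08% of all transcripts) and 0 at 0.5 or higher (0.24%). With PF846, 1 of 59 was at -0.5 or lower (0.396%) and 0 at 0.5 or higher (0.0792%). A count of 1 gene is too small to set it above or below its share. The gene was BCAP31, an ER membrane protein that escorts membrane cargo, with means of 2391 with vehicle and 1155 with PF846 (log2 ratio -1.05, place 10 from the lowest), and of 2890 and 2455 with PF8503 (-0.24). Its PF846 region held 90.4% of the vehicle reads of its PF8503 region, so these values too cover different codons. The smaller region was chosen at the largest deficit, which lowers the PF846 ratio by construction. BCAP31 was listed with earlier results of these data known, so its count is not independent of that choice. ARF1, the GTPase that recruits COPI, was just short of -0.5 with PF846, from 5016 to 3638 normalized counts (-0.46), and at -0.00014 with PF8503, over the same region. Apart from USO1, which was listed for its known late stall, no transport gene looked up, among the 45 and these, was at -0.5 or lower with both compounds.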

How the data were processed

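Ribosome-protected fragments were sequenced from 9 libraries of Huh-7 cells. The authors removed adapters (FASTX toolkit) and ribosomal RNA reads, aligned the rest with Bowtie to canonical coding transcripts (GENCODE version 24, GRCh38), kept reads with a single position, and counted them 3' of DMax, the codon of largest divergence from vehicle, where its Z score was at least 2. Otherwise they counted from 10 codons after the start, in both cases without the last 10 codons, for transcripts with more than 30 counts. Versions of Bowtie and DESeq are not given in the sources used here. The authors divided counts by DESeq size factors, and the signal they deposited for a transcript is the mean of these over libraries. The tables also hold the authors' ratios, log2 ratios and p-values, which were not used. A script of the study reads replicates 2 to 4, while the labels number them 1 to 3, so which libraries entered the means is not certain.

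Conditions follow the library titles, and vehicle is the first of the 2 means in each table. Computed here were log2 ratios of the means, called at 0.5 in either direction, ranks, medians, the central 95% in 10 classes of mean, and the ratio of vehicle means between tables with a tolerance of 0.002. Ratios, calls and region differences were tested on simulated Poisson counts, with the shortened regions picked at random. Further spread between replicates and a start chosen at the largest deficit were not simulated. Codon numbers, positions and coding sequences are those of the Ensembl canonical transcripts of GENCODE version 44, in which 47 of 47 gene names were found. The study used version 24, so its transcript may differ. The codon counts had been planned from RefSeq proteins, which were not used here. The p-values in the tables were left aside as the authors' own comparisons, and no test was run here on the means. The genes, the lists and the alternatives were chosen with earlier results of these data known. Values are given in full for USO1, for genes past 0.5 or with another counted region, and for the 3 highest and lowest per compound. Other values, such as those of TMED2, GOLGA2 or ARF1, were chosen after they were seen. Python 3.11.15, numpy 2.4.6, pandas 2.3.3, matplotlib 3.10.9 and biopython 1.88 were used.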

Additional observations from a re-analysis of the deposited data

How the results depend on the processing

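Of 51 comparisons of 13 results with another setting, 43 left the value within 0.1 on the log2 scale, or a count or level within 1.5 times, and 8 moved it. Some of the 43 could not have moved, since a count of 0 stays 0 at a stricter limit or in a subset of the genes. At 1 on the log2 scale, 1 gene was lower with PF8503 (KDELR3) and 0 with PF846. A minimum mean of 100 normalized counts left 1 with PF8503, since KDELR3 lies just under it. Over the genes with the same region in both tables, 0 were lower with PF8503 and 0 with PF846, as USO1 and KDELR3 are then left out. At 0.3, 1 gene (BET1) was apart between the compounds, and with all regions included 1 (KDELR3). The values of KDELR3 cover different codons, so this count gives no direct contrast between the compounds. With a pseudocount of 10, chosen for KDELR3 after seeing the data, its log2 ratio with PF8503 was -1.09. Centring on the median of all transcripts moved the ratio of neither USO1 nor KDELR3 by more than 0.1, but turned the median of the 45 genes with PF8503 from 0.0016 to -0.011. No paired analysis was possible because the deposited tables hold means over libraries, and leaving out single replicates was not run for the same reason. Depth per library is unknown, and genes of few reads, such as BET1 and KDELR3, lie in classes of mean with wider ranges than those of genes with many reads.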
